A study of Xenopus laevis with 9 samples.

Results

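The Wnt pathway was followed through 102 probesets for 63 genes, out of 15476 probesets measured on 9 Affymetrix arrays of *Xenopus laevis* lens and cornea. A probeset is a set of short probes that together report the level of 1 transcript sequence. Members were chosen by gene symbol and not by level, among the 9296 probesets whose annotation gave exactly 1 symbol. They fell into 16 probesets for Wnt ligands, 20 for receptors and coreceptors, 12 for secreted modulators, 10 for Dishevelled and planar polarity proteins, 30 for the destruction complex and beta-catenin, 3 for casein kinase 2 and 11 for nuclear factors. All tissue came from wildtype tadpoles at stage 50. Group L was whole lens (arrays L1, L2 and L3). Group R was cornea collected 3 days after the lens had been taken out, described by the study as undergoing cornea-lens transdifferentiation, or CLT (R1, R2 and R3). Group S was cornea collected 3 days after a sham operation that opened the cornea and left the lens in place (S1, S3 and S4). Each array measured 1 pool of tissue, the cornea samples carried some skin epidermis, and the L lenses were those removed from the tadpoles that later gave the R corneas.

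Wnt proteins are secreted ligands that bind Frizzled receptors together with the coreceptors Lrp5 and Lrp6. In the canonical branch, Dishevelled then blocks a complex of Axin, Apc, Gsk3 and casein kinase 1 that otherwise marks beta-catenin for degradation, and stabilised beta-catenin acts in the nucleus with Tcf and Lef factors. Another branch sets planar cell polarity through Dishevelled with Vangl, Prickle and Daam proteins. In mouse and chick, canonical Wnt activity is known to restrain lens formation in the surface ectoderm, and in mouse it is needed later in the lens epithelium.

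The labels were first checked against tissue markers. All 11 probesets for lens markers, mostly crystallins, were higher in L than in S, and their summed intensity was 10630 to 11010 in lens against 12.7 to 14.4 in sham cornea. All 23 probesets for markers of corneal and epidermal epithelium were lower in L than in S. Retina markers differed among the R arrays, whose sums over 17 probesets were 115 (R1), 557 (R2) and 29.6 (R3), against 19.2 to 19.9 in the sham arrays and 125 to 306 in the lens arrays. Of the lens sums of 203.5 (L1), 305.8 (L2) and 124.9 (L3), the nrl.S probeset alone gave 73.0, 68.8 and 67.0. It read 2.05 to 2.31 in the sham arrays, so the lens sums do not measure retina alone. Yet nrl.S was not the only retina probeset to rise. In L against S, 8 of the 17 were higher (47.1% against 22.9% of all probesets) and 0 were lower. Among them, rom1.L read 52.7, 84.2 and 24.1 in L against 0.430 to 0.713 in S. The part of retina in the lens values of the Wnt members was not tested. Lens markers summed to 83.6 (R1), 15.0 (R2) and 35.8 (R3). In R against S, 1 of 17 retina probesets, 1 of 17 for skeletal muscle, 0 of 14 for corneal stroma and 0 of 11 for leukocytes passed. At an unadjusted p under 0.05 the counts were 5, 3, 2 and 1. Over all 15476 probesets 174 (1.12%) passed, and 2239 had an unadjusted p under 0.05. No lens or epithelium probeset passed, but all 11 lens probesets had a difference above 0 (7 at an unadjusted p under 0.05), and 18 of 23 epithelium probesets had one below 0 (3 at an unadjusted p under 0.05). In L against S, 12 of the 14 stroma probesets and 7 of the 11 leukocyte probesets were lower, and 5 muscle probesets were higher and 1 lower. S4 lay close to the average of S1 and S3, since the variance of its log2 distance from that average was 0.232 of the variance of S1 minus S3, where errors independent between arrays give at least 0.25 and the other 8 arrays gave 0.533 to 1.34. The study describes the 3 pools of each group as biological replicates. It gives no further detail on how S4 was made, and every SE and p that uses S rests on S4 being independent. Without S4 the Wnt probesets called were 1 higher and 0 lower in R against S, and 24 higher and 26 lower in L against S. Values under an array's own 5th percentile, which was 0.984 to 1.06, were taken as too low to give a difference an exact size. Where all 3 arrays of a group lay there, no size is given, and where 1 or 2 did, the size given is approximate and this is said. Of the 102 Wnt probesets, 46 (45.1%) had a mean intensity of at least 4 over the 9 arrays, against 48.4% of all probesets. The upper quartile of an array was 8.99 to 9.86 for lens and 17.5 to 20.4 for cornea, at medians of 2.99 to 3.29. Intensities of different probesets were not compared with each other, and in these bulk samples fewer cells of a type and less RNA per cell cannot be told apart.

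Many of the Wnt probesets differed between lens and cornea and few between the corneas of the 2 operations, and the same held for all probesets. In R against S, 3 of 102 Wnt probesets were higher and 0 were lower (limma on log2 intensity, adjusted p under 0.05), which is 2.94% against 1.12% of all probesets (0.485% higher and 0.64% lower). At an unadjusted p under 0.05 the counts were 15 higher and 4 lower. Over all 15476 probesets they were 1211 higher and 1028 lower. In L against S, 32 were higher and 31 lower, which is 61.8% against 53.4% of all probesets (22.9% higher and 30.6% lower). In L against R, 26 were higher and 31 lower, which is 55.9% against 48.8% (18.6% higher and 30.2% lower). All 3 L arrays stood above all 6 cornea arrays in 27 members (26.5% against 20.4% of all probesets) and below them in 27 (26.5% against 29%). The median log2 difference of the Wnt probesets was 0.18 in R against S (0.06 over all probesets), 0.21 in L against S (0.02) and -0.05 in L against R (-0.07). These comparisons share arrays. With the arrays forced to 1 distribution by quantile normalisation, the members split into 34 higher and 23 lower in L against S and 31 higher and 20 lower in L against R. All probesets then split into 4115 higher and 3561 lower in L against S (from 3539 and 4732) and 3856 and 3354 in L against R (from 2881 and 4674), and their median moved from 0.02 to 0.14 in L against S and from -0.07 to 0.11 in L against R.

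**Figure D1:**
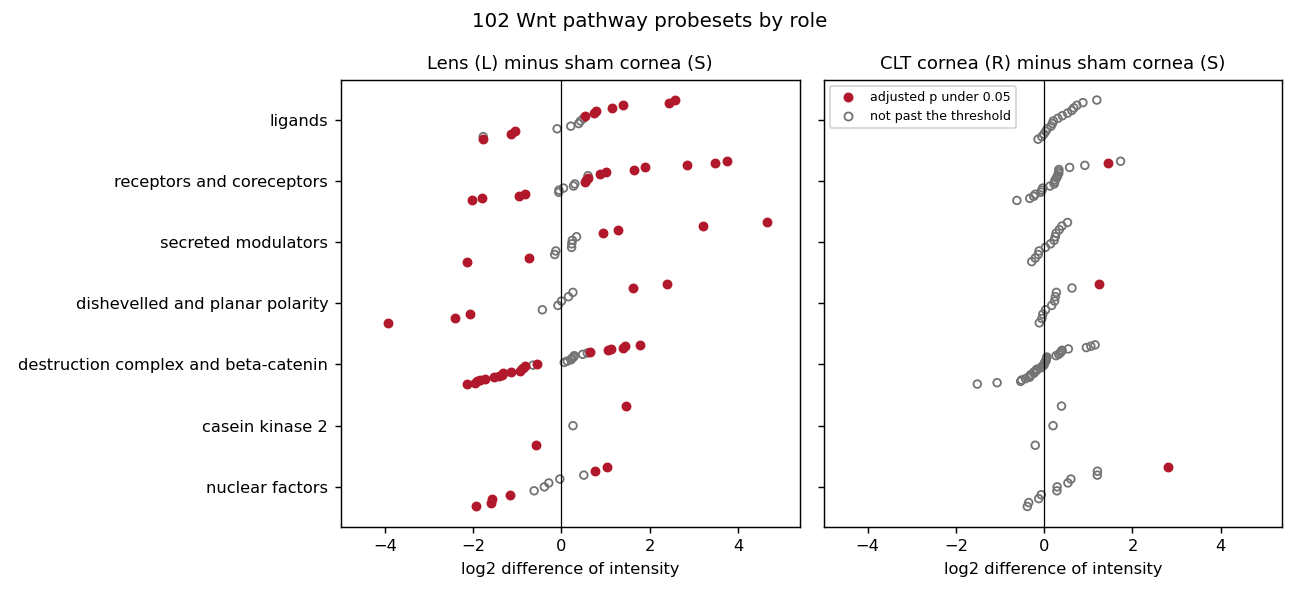
Log2 difference of intensity for each of the 102 Wnt probesets, lens minus sham cornea on the left and CLT cornea minus sham cornea on the right, with 1 row per role and 1 point per probeset, filled where the adjusted p was under 0.05. The lens differences run from -3.93 (vangl1.L) to 4.67 (sfrp2.S) with 63 filled points, and the CLT differences have 3 filled points, all above 0.

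The largest of the 3 rises in CLT cornea was that of tcf7.S, which encodes a Tcf factor, the DNA-binding partner of beta-catenin. Its intensity was 8.31, 7.18 and 20.8 in R, 1.54, 1.79 and 1.32 in S, and 1.18, 2.0 and 1.43 in L. All 3 R arrays were above the other 6, and L and S overlapped. The R minus S difference was 2.80 on the log2 scale (SE 0.38, adjusted p = 0.0103, limma), and L minus R was -2.84 (adjusted p = 0.000228), while L minus S was -0.04 (adjusted p = 0.942). The R minus S call was lost without S1 (adjusted p = 0.0506), without S4 (0.0601), with an offset of 8 added before log2 (1.01, adjusted p = 0.0717) and with only R and S fitted (0.0598). Without R2 the R minus S difference was 3.09 (adjusted p = 0.0113). The summed retina markers were above the sham arrays in all 3 R arrays, and their part in the tcf7.S values was not tested.

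Dvl2 is a Dishevelled protein, which relays the signal from Frizzled to both branches, and 3 probesets measured dvl2.L. The first gave 9.65, 11.5 and 10.5 in R, 3.98, 4.16 and 5.33 in S, and 3.71, 5.05 and 3.99 in L. Again every R array was above the other 6 arrays. R minus S was 1.24 (SE 0.19, adjusted p = 0.0179) and L minus R was -1.32 (adjusted p = 0.000324). The other 2 probesets did not pass, with R minus S of 0.63 (95% interval -0.42 to 1.68) and -0.11 (-0.89 to 0.67). The call of the first was lost with quantile normalisation (0.87, adjusted p = 0.143), with only R and S fitted (0.0507), with trended and robust variance estimates (0.0551), without S1 (0.0813) and without S3 (0.0643).

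Fzd7, a Frizzled receptor, had 5 probesets for fzd7.L. Only the first passed in R against S, with 2.86, 3.46 and 4.18 in R, 0.895, 1.62 and 1.43 in S, and 19.8, 15.6 and 16.5 in L. The R values lay between those of S and L without overlap, for a difference from S of 1.44 (SE 0.25, adjusted p = 0.0325), approximate because S1 was below the 5th percentile. R minus S was 0.58, 0.33, 0.23 and -0.03 in the other 4 probesets. In L against S all 5 rose, by 3.75, 2.85, 3.48, 1.0 and 1.90, the first and the fourth approximate because 1 S array was below the 5th percentile. The call of the first in R against S was lost without any 1 of the 3 lens arrays or of R2, R3, S1 and S4 (adjusted p = 0.0522 to 0.11), with an offset of 8 (0.30, adjusted p = 0.0988), with only R and S fitted (0.112) and with trended and robust variance estimates (0.0528).

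These transcripts were also the targets of assays designed in the study, whose primers are given here because they fix which stretch of each transcript was meant. The Frz7 pair was designed on the same source sequence as the third fzd7.L probeset, the one with a difference of 0.33 and not the one that passed. By real-time PCR the study reported both Fzd7 and Tcf7 as higher in CLT cornea than in sham cornea.
Frz7 forward, real-time PCR: aactggttgtgaccaagctcc
Frz7 reverse, real-time PCR: agttaaccagtgccaacacc
Tcf7 forward, real-time PCR: atagcgagtccttcagccat
Tcf7 reverse, real-time PCR: gatatctgtccaactcctcc
Dvl2 forward, in situ probe: taccatctggatgaggag
Dvl2 reverse, in situ probe: ctcagtgacagaggtgct

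**Figure D2:**
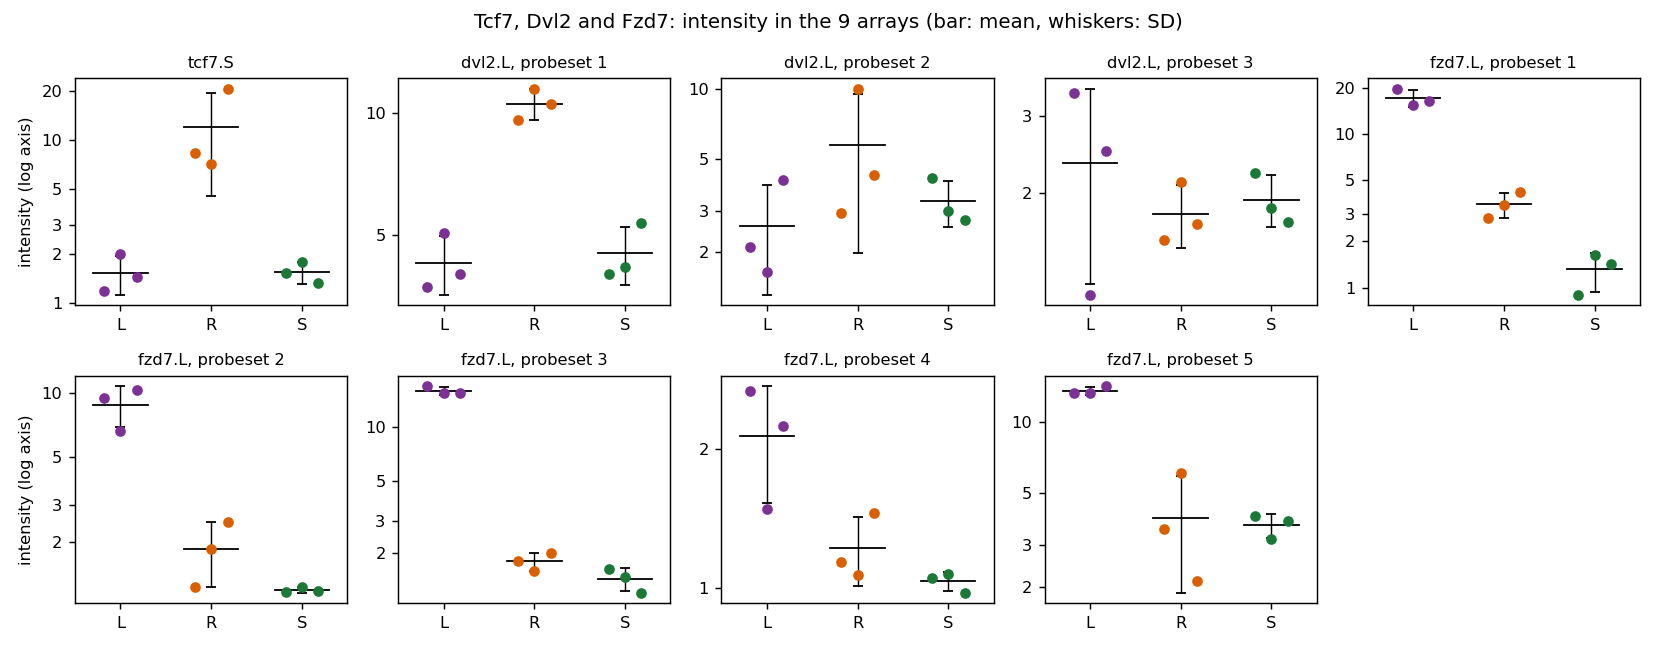
Intensity (log axis) of the tcf7.S probeset, the 3 dvl2.L probesets and the 5 fzd7.L probesets in lens (L), CLT cornea (R) and sham cornea (S), with 1 point per array, a bar at the mean and whiskers of 1 SD (n = 3). The R points stand above all L and S points for tcf7.S (7.18 to 20.8) and for dvl2.L probeset 1 (9.65 to 11.5), and lie between S and L for fzd7.L probeset 1 (2.86 to 4.18).

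Counted by overlap alone, 20 Wnt probesets had all 3 R arrays above all 3 S arrays, which is 19.6% against 12.3% of all probesets, and 8 had them all below (7.84% against 9.82%). The R arrays were above all 6 other arrays in 7 probesets (6.86% against 4.27%), which were for dkk2.L, dvl2.L, gsk3b.L, tcf7.S, tcf7l1.L, tcf7l2.L and wnt6.S. Of these, 3 are Tcf factors. In frzb.S alone the R arrays were below all 6 others (0.98% against 2.08%), but 2 of its R arrays were below the 5th percentile.

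The other nuclear factors did not pass in R against S. Tcf7l1 and Tcf7l2 are further Tcf factors, and the first often acts as a repressor of Wnt targets. For tcf7l1.L the intensity was 36.2, 39.0 and 54.0 in R and 27.5, 26.2 and 30.1 in S, for a difference of 0.60 (SE 0.24, adjusted p = 0.297). For tcf7l2.L it was 10.1, 10.3 and 13.5 in R and 3.06, 8.44 and 4.47 in S in 1 probeset (1.20, adjusted p = 0.238), and 3.25, 8.01 and 8.63 against 3.15, 2.54 and 2.29 in the other (1.21, adjusted p = 0.309). In these 3 probesets every R value was above every S value and none of them passed.

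Among receptors, 2 probesets measured lrp6.L, a coreceptor of the canonical branch. The first read 6.10, 3.96 and 17.8 in R and 2.78, 2.11 and 2.01 in S (1.73, SE 0.50, adjusted p = 0.161), and the second read 3.70, 2.45 and 5.55 against 2.09, 2.03 and 1.74 (0.92, adjusted p = 0.194). Both had no overlap between R and S, and R3 was the highest in both. Among ligands, wnt6.S had R above S in both probesets, with differences of 0.67 (adjusted p = 0.131) and 1.19 (adjusted p = 0.242). The remaining ligands with an unadjusted p under 0.05 were wnt5b.S (0.63, adjusted p = 0.335) and wnt11b.L (0.53, adjusted p = 0.297). Of 16 ligand probesets 0 passed, against 1.12% of all probesets, a share at which so few may well hold 0. The first wnt6.S probeset and wnt11b.L were low, under the array median in every R and S array.

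In the group of the destruction complex and beta-catenin 0 of 30 probesets passed in R against S, against 1.12% of all probesets. At that share a group of 30 may well hold 0. That group was made by symbol and is wider than the complex. It took in all casein kinase 1 genes (csnk1a1, csnk1d and csnk1g1 to csnk1g3), ctnnbip1 and ctnnbl1. Gsk3b is the kinase that marks beta-catenin, and gsk3b.L read 8.61, 9.60 and 8.78 in R against 3.30, 7.70 and 3.17 in S (1.06, SE 0.33, adjusted p = 0.19). Without S3, its highest S array, the difference was 1.47 and passed (adjusted p = 0.0236). That pass follows from leaving out the S array closest to R and does not count as a call. For btrc.L, the ubiquitin ligase subunit that recognises marked beta-catenin, R minus S was 0.96 (adjusted p = 0.309) with R and S overlapping, and the 3 btrc.S probesets gave 1.15, -0.42 and -0.23 without passing. For beta-catenin, 1 of the 2 ctnnb1.L probesets read lower in every R array, with 45.5, 49.4 and 44.9 against 57.3, 62.2 and 56.3 in S (-0.33, 95% interval -0.65 to -0.01, adjusted p = 0.327). It passed as a fall only with an offset of 8 (-0.29, adjusted p = 0.0373). The other ctnnb1.L probeset overlapped between R and S (-0.23, adjusted p = 0.866). For ctnnb1.S the R minus S difference was -0.30 (adjusted p = 0.433), also without overlap. Casein kinase 1 alpha read 102, 108 and 88.2 in R against 132, 169 and 132 in S for csnk1a1.L (-0.53, adjusted p = 0.238).

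The R arrays did not vary together in every member. For wnt3a.S, a canonical ligand, R1 and R3 read 11.7 and 13.9 and R2 read 2.10, against 2.98, 4.61 and 4.02 in S. The difference was 0.88 (adjusted p = 0.546) with all arrays and 1.74 without R2 (adjusted p = 0.012). For csnk1g1.S, a casein kinase 1 gene, R2 read 9.34 in 1 of 5 probesets and R1 and R3 read 1.22 and 1.24, against 4.82 to 8.63 in S. Without R2 that difference was -2.49 (adjusted p = 0.0307). Both p-values without R2 follow from leaving out the R array that ran against the others, so neither counts as a call. The second wnt6.S probeset was highest in R2, at 7.11 against 2.12 in R1 and 2.05 in R3, and sfrp2.S read 7.52 in R2 against 2.57 and 1.87. Retina markers were highest in R2 in 17 of 17 probesets, and their part in these values was not tested. Over all members R3 was the highest R array in 47 (46.1% against 40.8% of all probesets), R2 in 36 (35.3% against 31.9%) and R1 in 19 (18.6% against 27.3%).

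**Figure D3:**
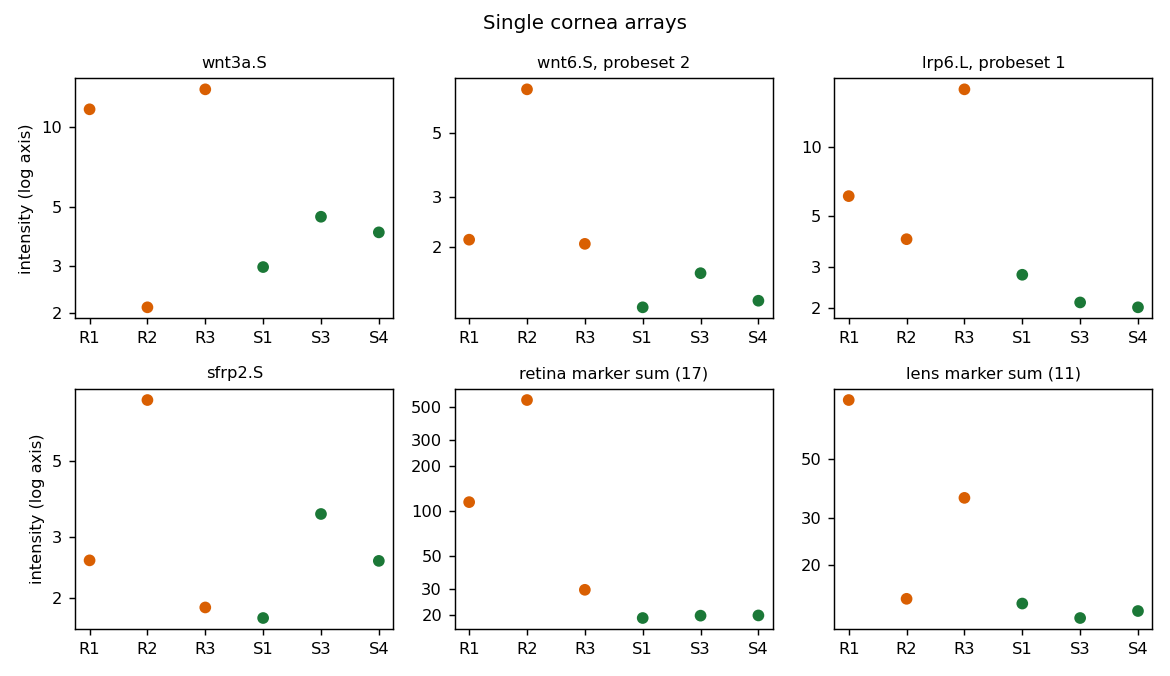
Intensity (log axis) in each of the 6 cornea arrays, with 1 point per array, for wnt3a.S, the second wnt6.S probeset, the first lrp6.L probeset and sfrp2.S, beside the summed intensity of the 17 retina marker probesets and the 11 lens marker probesets. R2 is the lowest array for wnt3a.S (2.10) and the highest for wnt6.S (7.11), sfrp2.S (7.52) and the retina markers (557), while R3 is the highest for lrp6.L (17.8).

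In the lens, 7 of 16 ligand probesets were higher than in S (43.8% against 22.9% of all probesets) and 3 were lower (18.8% against 30.6%). Wnt7b, which acts through the canonical branch in several tissues, gave 34.3, 29.0 and 33.6 in L against 5.80, 7.56 and 4.87 in S for wnt7b.L (2.43, SE 0.23, adjusted p = 1.93e-05). The first wnt2b probeset, wnt2b.L, read 12.1, 14.4 and 13.2 in L against 2.15, 1.82 and 2.79 in S (2.58, adjusted p = 5.40e-06), and a wnt2b-b probeset rose by 1.14 (adjusted p = 0.000493). In these 3 probesets the L arrays stood above all 6 cornea arrays. The other wnt2b-b probeset overlapped between L and cornea (0.50, adjusted p = 0.07). Wnt5b.S rose by 1.39 (adjusted p = 0.002), while wnt5a.S, a ligand known mainly for the noncanonical branch, fell by 1.15 (adjusted p = 0.0248). Wnt3a.S read 1.04, 1.24 and 1.07 in L and fell by 1.77 against S (adjusted p = 0.0331, approximate, with 1 L array below the 5th percentile), a call lost with an offset of 1 (-1.19, adjusted p = 0.0826) or 8 and without any 1 of the L or S arrays (0.0517 to 0.0919). Wnt4.L was below the 5th percentile in all 3 L arrays, and its fall (adjusted p = 0.0303) has no exact size. The wnt4.L call was lost with either offset and without any 1 of the L arrays, S1 or S3 (0.0671 to 0.101), and that of wnt5a.S with an offset of 8 and without L1, L2, S3 or S4 (0.0676 to 0.091).

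Among receptors 10 of 20 probesets were higher in L than in S (50% against 22.9% of all probesets) and 4 were lower (20% against 30.6%). Since 5 of the 10 were those of fzd7.L, the counts by gene were 5 higher and 4 lower. Among the others, fzd8.L read 5.46, 3.65 and 6.03 in L against 1.61, 1.34 and 1.79 in S (1.65, SE 0.22, adjusted p = 0.000217), with no overlap. The fzd8.S probesets gave 0.59 (adjusted p = 0.0206) in 1 and -0.06 (adjusted p = 0.751) in the other. The first of these read 1.97, 1.81 and 1.89 in L against 1.25, 1.29 and 1.22 in S. Ror2, a receptor for noncanonical ligands, rose by 0.55 (ror2.L, adjusted p = 0.0167), at 1.55, 1.77 and 2.08 in L against 1.16, 1.31 and 1.20 in S. These values of fzd8.S and ror2.L were low, all under the median of their array. On the lower side, the coreceptor gene lrp5.L read 2.77, 5.72 and 5.01 in L against 14.2, 22.2 and 16.9 in S (-2.02, SE 0.39, adjusted p = 0.00182), and lrp6.L gave 0.60 and 0.30 without passing (adjusted p = 0.334 and 0.396). Fzd2.S fell by 1.80 (adjusted p = 0.0218) and fzd3.L fell by 0.96 (adjusted p = 0.0227). Leaving out 1 array ended the call of fzd8.S (L1, S1 or S4), ror2.L (L3, S1 or S4), fzd2.S (L1, L3, S3 or S4) and fzd3.L (L1, L2, S1 or S3), with adjusted p of 0.0515 to 0.0805.

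The widest rise of any member in the lens was that of a secreted modulator. Sfrp proteins carry a Frizzled-like domain and bind Wnt ligands outside the cell. Sfrp2.S read 57.0, 59.2 and 76.3 in L against 1.75, 3.50 and 2.56 in S and 2.57, 7.52 and 1.87 in R, for an L minus S of 4.67 (SE 0.47, adjusted p = 3.23e-05) and an L minus R of 4.27 (adjusted p = 6.37e-05). Sfrp1.L read 7.20, 7.28 and 6.75 in L and was below the 5th percentile in all 3 S arrays, so its rise (adjusted p = 1.70e-06) has no exact size. Sfrp5.L rose by 1.29 (adjusted p = 0.00874) and a frzb2.L probeset by 0.95 (adjusted p = 0.00428), the latter approximate because 2 of its S arrays were below the 5th percentile. Wif1 also binds Wnt ligands, and wif1.S ran the other way, at 2.08, 2.16 and 2.64 in L against 3.92, 20.9 and 12.4 in S (-2.14, SE 0.51, adjusted p = 0.00641). So did sfrpx.S, an Sfrp gene by its symbol (-0.74, adjusted p = 0.0256), with the L arrays below all 6 cornea arrays. The sfrpx.S call was lost without L1, L3, S1 or S4 (0.0688 to 0.0931) and with an offset of 8. Of the 12 modulator probesets, 4 were higher in L than in S (33.3% against 22.9% of all probesets) and 2 lower (16.7% against 30.6%). Together these were 50% against 53.4% of all probesets. The probesets for cer1, dkk1 and dkk2 did not pass.

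**Figure D4:**
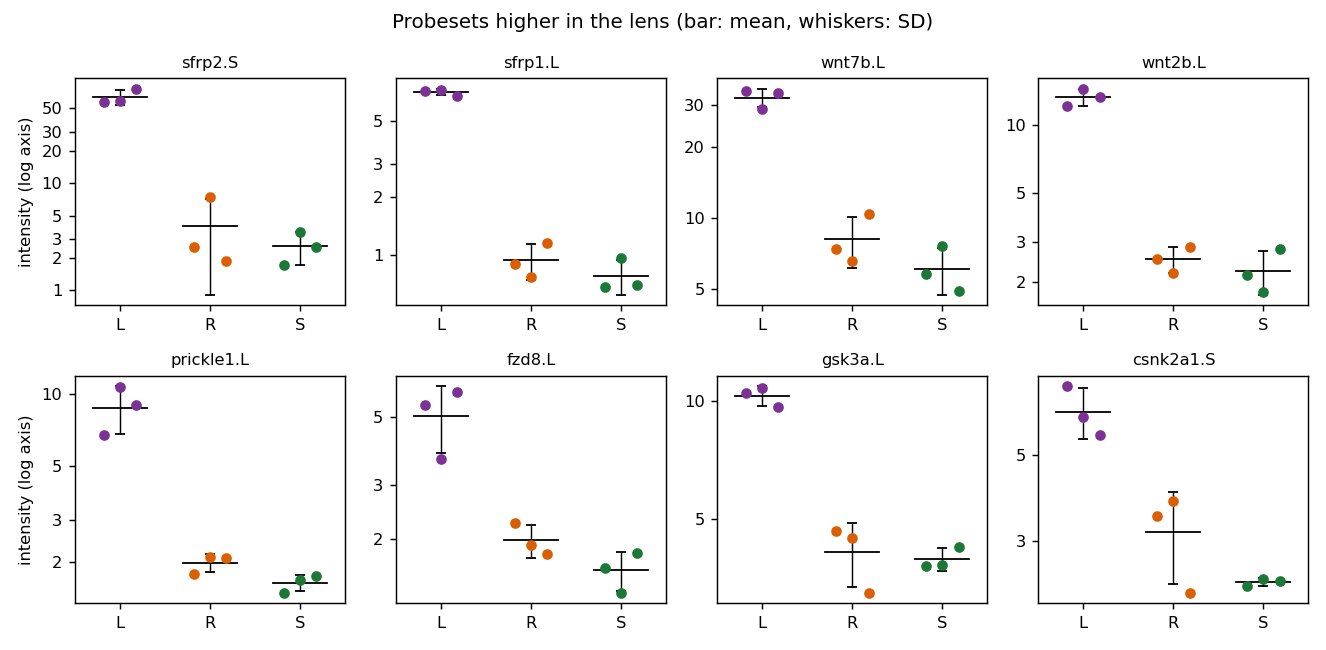
Intensity (log axis) of 8 probesets that were higher in lens, in L, R and S, with 1 point per array, a bar at the mean and whiskers of 1 SD (n = 3). In each panel the L points lie above all 6 cornea points, from 57.0 to 76.3 for sfrp2.S and from 29.0 to 34.3 for wnt7b.L.

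Of the 10 probesets for Dishevelled and planar polarity proteins, 2 were higher in L than in S (20% against 22.9% of all probesets). A further 3 were lower (30% against 30.6%), and together these were 50% against 53.4% of all probesets. Vangl1 and Vangl2 are membrane proteins of the polarity core, and Daam1 is a formin that acts downstream of Dishevelled on actin. Vangl1.L read 0.913, 1.65 and 1.93 in L against 21.5, 23.4 and 20.6 in S and 20.1, 20.4 and 23.5 in R, which gave the lowest difference of any member (-3.93, SE 0.26, adjusted p = 2.01e-06), approximate because L1 was below the 5th percentile. Vangl2.S read 6.34, 5.95 and 3.13 in L against 18.4, 23.0 and 20.6 in S (-2.07, adjusted p = 0.000163), and daam1.S read 9.58, 7.36 and 5.14 against 35.3, 43.8 and 35.0 (-2.41, adjusted p = 4.31e-05). The L arrays were below all 6 cornea arrays for these 3. The vangl2.L probeset read 1.56, 1.54 and 1.75 in L against 1.36, 1.36 and 1.33 in S and did not pass (0.26, adjusted p = 0.252). Prickle1, which opposes Dishevelled at the cell cortex in the fly, was higher in L from both homoeologs, with 6.73, 10.6 and 8.95 against 1.50, 1.69 and 1.75 for prickle1.L (2.39, SE 0.20, adjusted p = 8.00e-06) and a rise of 1.61 for prickle1.S (adjusted p = 7.10e-05). Between R and S, the 5 probesets that passed in L against S had differences of -0.03 to 0.28, and none of these passed.

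In the destruction complex group 14 of 30 probesets were lower in L than in S (46.7% against 30.6% of all probesets) and 6 were higher (20% against 22.9%). Of the 14, 8 were for casein kinase 1 genes (csnk1a1, csnk1d and csnk1g1 to csnk1g3), 2 for ctnnb1 (beta-catenin) and 2 for ctnnbl1, described last. Another was ctnnbip1.L, which fell by 0.95 (adjusted p = 0.00667). The share of the group is therefore not that of the complex alone. Ctnnb1.L read 22.8, 22.8 and 24.4 in L against 57.3, 62.2 and 56.3 in S (-1.33, SE 0.14, adjusted p = 4.45e-05), and ctnnb1.S fell by 0.88 (adjusted p = 0.00142), whereas the other ctnnb1.L probeset gave 0.27 (adjusted p = 0.646). Csnk1g3.L read 6.44, 5.69 and 5.33 in L against 19.7, 20.1 and 18.3 in S (-1.74, adjusted p = 1.49e-05), csnk1a1.L fell by 1.41 and csnk1g2.L fell by 1.54. With quantile normalisation the calls of ctnnb1.S (-0.36, adjusted p = 0.0878) and csnk1g2.L (-0.77, adjusted p = 0.0778) were lost. Higher in L were gsk3a.L, a Gsk3 gene, at 10.5, 10.8 and 9.65 in L against 3.77, 3.81 and 4.24 in S (1.39, SE 0.18, adjusted p = 0.000159), and the scaffold genes apc.L by 1.13 (adjusted p = 0.0241) and axin1.L by 1.05 (adjusted p = 0.0117). The other Gsk3 gene, gsk3b.L, gave 0.59 and did not pass (adjusted p = 0.158). The apc.L call was lost without L1, L2, S3 or S4 (0.0618 to 0.0787). Btrc.L fell by 1.96 (adjusted p = 0.00248) in 1 probeset, and the 3 btrc.S probesets did not pass. Casein kinase 2, a separate kinase that phosphorylates Dishevelled and beta-catenin, was higher for its catalytic subunit gene csnk2a1.S (1.45, adjusted p = 0.000499) and lower for csnk2a2.L (-0.57, adjusted p = 0.0146), whose sign turned with quantile normalisation (0.41, adjusted p = 0.0921) and whose call was lost without S1 (0.0581). Ctnnbl1 matched by symbol but is a splicing protein outside the pathway. Its 2 homoeologs gave -0.56 (ctnnbl1.L, adjusted p = 0.0297) and -0.82 (ctnnbl1.S, adjusted p = 0.00736) and turned sign with quantile normalisation (0.42 and 0.15).

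Among nuclear factors, 4 of 11 probesets were lower in L than in S (36.4% against 30.6% of all probesets) and 2 were higher (18.2% against 22.9%), and 7 were lower in L than in R (63.6% against 30.2%). Tcf7l1.L read 5.52, 9.94 and 7.05 in L against 27.5, 26.2 and 30.1 in S (-1.94, SE 0.24, adjusted p = 0.000134) and 36.2, 39.0 and 54.0 in R (-2.54, adjusted p = 2.43e-05). The corepressor gene tle2.L read 9.22, 9.63 and 9.35 in L against 21.9, 31.8 and 31.1 in S (-1.57, adjusted p = 0.000128), and tle5.S, a short Groucho family member, fell by 1.17 (adjusted p = 0.000711), a call lost with quantile normalisation (-0.18, adjusted p = 0.434). In L against R tle5.S fell by 0.79 (adjusted p = 0.00748), but its sign turned with quantile normalisation (0.19). One of the tcf7l2.L probesets fell by 1.60 against S (adjusted p = 0.0108), approximate because L2 was below the 5th percentile.

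**Figure D5:**
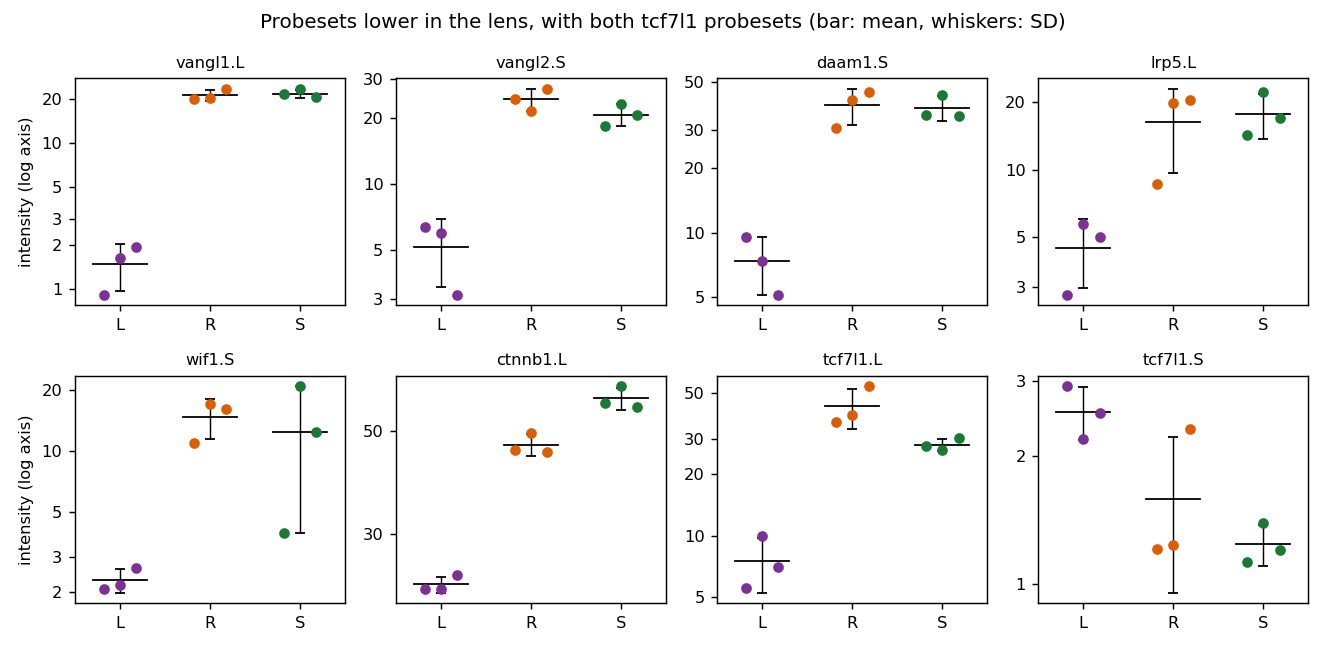
Intensity (log axis) of 7 probesets that were lower in lens, and of tcf7l1.S, in L, R and S, with 1 point per array, a bar at the mean and whiskers of 1 SD (n = 3). The L points lie below all 6 cornea points for the 7, from 0.913 to 1.93 for vangl1.L, and for tcf7l1.S they lie above all S points.

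Probesets of 1 gene did not always move together. Of the 24 genes with more than 1 probeset (63 probesets, homoeologs counted as 1 gene), in L against S all probesets passed in 1 direction for 3 genes, some passed in 1 direction for 13, none passed for 4, and probesets passed in opposite directions for 4. The opposed genes were csnk1d, csnk1g1, fzd10 and tcf7l1. Tcf7l1 split by homoeolog, since tcf7l1.S read 2.91, 2.19 and 2.52 in L against 1.13, 1.39 and 1.20 in S and rose by 1.03 (SE 0.26, adjusted p = 0.00865) while tcf7l1.L fell. For csnk1d the split lay within csnk1d.S, where 3 probesets fell by 1.91, 1.85 and 1.35 and 1 rose by 1.45. Within csnk1g1.S 1 probeset rose by 1.77 and others fell by 2.15 and 1.14, and within fzd10.S 1 fell by 0.83 and 1 rose by 0.53. The fzd10.S rise was lost without L1, L2, R1, R2, S3 or S4 (adjusted p = 0.0558 to 0.17) and with each of 6 other settings, and the fzd10.S fall without L2 or S1. The csnk1g1.S falls were lost without S1 (0.0881 and 0.0602) and with an offset of 8. The larger, approximate because 1 L array was below the 5th percentile, was also lost without L1, L3 or S3 (up to 0.111), and the smaller with quantile normalisation (-0.35, adjusted p = 0.333). So was the smallest csnk1d.S fall (-0.38, adjusted p = 0.171). In L against R the opposed genes were bcl9, csnk1d, csnk1g1 and tcf7l1. There 1 bcl9.L probeset rose by 0.83 (adjusted p = 0.0126) and the other fell by 0.83 (adjusted p = 0.0431). In L against S the first rose by 0.77 (adjusted p = 0.0174, lost without L1 or S4) and the other did not pass (-0.29, adjusted p = 0.43). Probes of 1 homoeolog can bind the transcript of the other, and the array values cannot tell these apart.

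Genes that act around the pathway but were not members were taken from a list of 110 symbols, of which 51 genes were measured by 109 probesets. In R against S 0 of 109 passed by limma, against 1.12% of all probesets. At an unadjusted p under 0.05, 4 were higher and 5 lower, against 1211 and 1028 of all 15476 probesets. In L against S 15 were higher (13.8% against 22.9% of all probesets) and 63 lower (57.8% against 30.6%), with a median of -1.09 against 0.02. The fall with the smallest p was that of kremen2.S, a Dkk receptor that limits Lrp6, at 1.67, 1.14 and 1.46 in L against 26.7, 28.7 and 27.0 in S (-4.29, SE 0.18, adjusted p = 1.29e-07). Both named prkcd.L probesets, for a protein kinase C, fell by 3.86 and 3.84. Ruvbl1.S, which encodes an ATPase that binds beta-catenin, rose by 2.38 (adjusted p = 3.20e-05), the corepressor gene ctbp1.L by 1.77 (adjusted p = 0.000981), and bambi.S, a receptor-like inhibitor of TGF-beta signalling, by 1.07 (adjusted p = 0.00111).

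Known targets of canonical signalling were taken from a list of 61 symbols, of which 38 genes were measured by 61 probesets. In R against S 1 passed (1.64% against 1.12% of all probesets), tcf7.S, which is also a member. At an unadjusted p under 0.05, 6 were higher and 1 lower, against 1211 and 1028 of all 15476 probesets. The median was 0.11 against 0.06 over all probesets. In L against S 18 were higher and 15 lower, together 54.1% against 53.4% of all probesets. The targets that rose with the smallest p were mitf.L, a pigment cell and eye transcription factor, with 2 probesets that rose by 2.60 (adjusted p = 9.04e-07) and 2.97 (adjusted p = 1.03e-05, approximate, with S1 below the 5th percentile), and tbx3.S, a T-box factor, whose S values were below the 5th percentile. On the lower side, the 2 probesets for cldn1.S, a tight junction protein of epithelia, fell by 7.49 (approximate, with L2 below the 5th percentile) and fell by 6.07, and a probeset for fn1.S, the matrix protein fibronectin, fell by 5.43. Cldn1 is also among the epithelium markers, all 23 of which were lower in L. Axin2, a target that feeds back on the pathway, was measured by 1 probeset for each homoeolog. Neither passed in R against S, axin2.L read 2.99, 1.70 and 1.97 in L against 1.43, 1.39 and 1.33 in S (0.64, adjusted p = 0.0315, lost without L1, S1, S3 or S4), and axin2.S gave 0.22 (adjusted p = 0.279).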

How the data were processed

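RNA of 9 tissue pools, 3 per group, was amplified with the NuGEN Ovation system and hybridised to Affymetrix arrays, 1 per pool. The authors summarised probes by RMA within GenePattern and deposited 1 linear intensity per probeset and array. Settings and version of RMA were not given in the sources used here. The 135 control probesets were left out of the 15611 deposited. Groups came from the sample labels.

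Intensities were taken to log2 with no filter and the 3 groups were fitted together with limma 3.58.1 (R 4.3.3, lmFit and eBayes, 6 residual degrees of freedom). Tests were two-sided, adjusted by Benjamini-Hochberg over 15476 probesets, with a threshold of 0.05. In simulated R against S data, limma called 76 of 100 probesets changed 4-fold, 28 of 100 changed 2-fold and 6 of 15276 unchanged ones. Summaries and plots used python 3.11.15.

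Of the 102 members, 99 matched RefSeq (assembly Xenopus_laevis_v10.1) by gene ID. Matching to the rule by symbol ignored letter case and homoeolog suffixes, and Wnt genes whose probesets had no symbol in the annotation were not analysed here. Wnt7a, Wnt2 and Wnt3, which the study names, had no member probeset under those names. The ligand counts therefore do not test them. The members, the 6 marker lists, the list of other pathway genes and the list of targets were chosen with earlier results of these data known. Named genes were members past R against S, members the study names, those with the smallest p per role (3 in each direction in L against S, 2 in R against S), genes with opposed probesets and, per added list, the 3 smallest p in each direction. Other members were named after their values were seen. These were apc.L, axin2, csnk1g2.L, ctnnb1.S, ctnnbip1.L, ctnnbl1, dkk1, frzb.S, ror2.L, sfrp5.L, wnt11b.L and further probesets of ctnnb1.L and wnt2b-b. So were the markers nrl.S and rom1.L. Some genes chosen for 1 comparison were also described in another, such as csnk1a1.L in L against S and wnt3a.S in R against S. Alternatives were offsets of 1 and 8, quantile normalisation, median scaling, a lowest mean of 4, fits of only 2 groups, trended and robust eBayes, a replicate block and leaving out each array. The study calls the pools biological replicates, but neither it nor the labels say that they came from different clutches. The p-values therefore cover only pool-to-pool spread, which may be partly technical. The small number of arrays limits the precision.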

Additional observations from a re-analysis of the deposited data

How the results depend on the processing

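The count of 3 Wnt probesets higher in R against S was 1 with an offset of 8, 1 with trended and robust eBayes, 0 with only R and S fitted, and 0 to 3 with 1 array left out (0 without S1 and 1 without S4). No probeset was lower in R against S at the reported setting, 1 was with an offset of 8, and 0 to 1 were with 1 array left out (1 without R2). In L against S the 32 higher became 10 of the 46 members that passed a lowest mean of 4, and leaving out 1 array gave 24 to 32 higher and 23 to 35 lower. In L against R the 26 higher became 10 under the same minimum and the 31 lower became 20 with quantile normalisation, and leaving out 1 array gave 21 to 28 and 29 to 33. That minimum removed members as well as calls. It kept 7484 of all probesets, of which 1378 were higher and 3902 lower in L against S (median -0.80), and 1270 and 3929 in L against R. Quantile normalisation turned csnk2a2.L from -0.57 to 0.41 in L against S and to 0.22 in L against R, and tle5.S to 0.19 in L against R. Of the 63 members called in L against S, 43 kept their call without each array and 34 under every alternative. Replicate numbers are shared between groups, but same-numbered arrays deviated together with correlations of only -0.099 to 0.13, so the numbers were not taken as pairs. With the replicate block, 0 members were higher in R against S, and 21 were higher and 21 lower in L against S. Over all probesets the block gave 2444 higher and 4096 lower in L against S. S4 shares its number with no other array and no S array has the number of R2, so fewer arrays compare R with S directly. Over all probesets the 75 higher and 99 lower in R against S became 5 and 8 with the block, 37 and 43 with only R and S fitted, 128 and 206 with an offset of 8, 116 and 181 without R2, 123 and 106 without R1, 32 and 47 without S1 and 22 and 38 without S4. The cause was not tested. Below the 5th percentile of an array, differences have no exact size.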
